A study of Homo sapiens with 8 samples.

Results

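The genes described here are the stand-alone pseudouridine synthases, enzymes that convert uridine to pseudouridine in RNA without a guide RNA. They were chosen by symbol as PUS1, PUS3, PUS7, PUS7L, PUS10, PUSL1, TRUB1, TRUB2, RPUSD2 and RPUSD4. All 10 were found among the 60606 genes of the table, and all 10 passed the filter on low counts. Long RNA came from HEK293 cells, a human embryonic kidney line in wide use, 48 hours after lipid transfection with a small RNA mimic at 50 nM. The tDR group (4 libraries) received a mimic of the 3' tRNA-derived RNA (tDR) of tRNA-Asp-GTC, and the control group (4 libraries) received a scrambled mimic, so cells of both groups were transfected. Whether each library stands for its own culture is not stated in the labels, and the spread that p-values rest on may therefore be technical.

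Pseudouridine is an isomer of uridine in which the base is joined to the sugar through a carbon atom, which adds a hydrogen bond donor and stiffens the RNA backbone. It is abundant in tRNA, rRNA and small nuclear RNA and also occurs in mRNA. Stand-alone synthases recognise their sites by sequence and shape, whereas box H/ACA particles carry the catalytic subunit dyskerin (DKC1) to sites chosen by a guide RNA. Human stand-alone enzymes fall into the TruA, TruB, TruD, RluA and Pus10 families, named after bacterial and archaeal relatives. Of these, PUS7 is known to modify tRNA, mRNA and some tRNA-derived fragments.

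Of the 10 synthase genes 3 fell in the cells given the tDR, namely RPUSD2, PUS10 and PUS7, and 0 rose. The other 7 did not pass the test. At an unadjusted edgeR p under 0.05, 5 were lower and 0 higher, and the share of all genes at that threshold was not counted. DESeq2 called 3 lower and 0 higher, against 1861 and 1134 of the 34642 genes in its fit, whose median log2 fold change was 0.11. With limma 2 were lower and 0 higher, against 1934 and 2224 of 17184 genes. RPUSD2 was 34.1% lower, PUS10 26.6% lower and PUS7 9.51% lower. Over all 17184 genes tested, 24.3% were called in either direction, 11.4% were called lower and 12.8% higher (quasi-likelihood test of edgeR on 4 against 4 libraries, with p-values adjusted by the method of Benjamini and Hochberg and called under 0.05). The median log2 fold change, tDR over control, was -0.10 over the 10 synthases and 0.02 over all genes tested. The call of RPUSD2 was kept under all 19 alternative settings, that of PUS10 was lost under 5 of them and that of PUS7 under 13.

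The 3 genes that fell lie on different chromosomes, and the stretch around an annotated start of each is shown so that letters near those starts can be compared. RefSeq promoter windows (build GRCh38.p14, 250 bases before the start and 50 from it) were found for 7 of the 10 genes. Where a gene had several, the window whose start lies nearest to the GENCODE start was taken, which left out 3 windows of PUS10 and another of TRUB2. The window of RPUSD2 is chr15:40569049-40569348 on the plus strand, that of PUS10 is chr2:61018210-61018509 on the minus strand and that of PUS7 is chr7:105522222-105522521 on the minus strand. Each is printed 5′ to 3′ on the strand of the gene, with capitals at matches to the motifs searched.
RPUSD2: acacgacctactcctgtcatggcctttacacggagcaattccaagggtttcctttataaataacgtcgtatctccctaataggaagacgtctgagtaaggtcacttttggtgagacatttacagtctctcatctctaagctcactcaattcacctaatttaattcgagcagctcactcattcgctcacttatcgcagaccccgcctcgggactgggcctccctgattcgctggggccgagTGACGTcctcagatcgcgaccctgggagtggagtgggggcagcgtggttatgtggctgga
PUS10: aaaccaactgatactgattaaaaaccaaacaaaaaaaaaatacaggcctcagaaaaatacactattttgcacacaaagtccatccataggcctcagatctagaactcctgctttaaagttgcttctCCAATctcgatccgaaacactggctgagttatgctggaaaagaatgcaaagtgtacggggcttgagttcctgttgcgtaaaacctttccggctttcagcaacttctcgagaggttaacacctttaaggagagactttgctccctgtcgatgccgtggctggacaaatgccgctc
PUS7: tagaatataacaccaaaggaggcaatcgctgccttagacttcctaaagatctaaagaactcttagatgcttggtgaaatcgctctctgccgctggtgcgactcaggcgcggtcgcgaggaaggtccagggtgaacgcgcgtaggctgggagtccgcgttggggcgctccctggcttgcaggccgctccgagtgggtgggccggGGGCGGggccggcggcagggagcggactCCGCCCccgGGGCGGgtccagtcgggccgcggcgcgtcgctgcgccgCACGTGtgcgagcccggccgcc

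The motifs were searched on both strands as exact letters: the E box CACGTG, the GC box GGGCGG, the CCAAT box CCAAT, the ETS motif CCGGAAG, the core of the cyclic AMP response element TGACGT and the YY1 motif AAGATGGCG. The RPUSD2 window held 1 match, TGACGT, which is found in 7.98% of all 35116 windows of this length. The PUS10 window also held 1, CCAAT, found in 34.6% of windows. Of its other 3 windows, the one starting 4 bases away held the same motif, the one 828 bases away a GC box and the one 1047 bases away an ETS motif. PUS7 had 3 matches to the GC box (45% of windows) and 1 to the E box (7.26% of windows), with the E box lying 28 to 33 bases past the start. No 2 of the 3 printed windows matched the same motif, though the PUS10 window 828 bases away shared the GC box with PUS7. RPUSD4, which did not pass, held 3 E boxes, 1 GC box and 1 YY1 motif, the last present in 1.75% of windows. GC content was 68.3% in the PUS7 window, 51.7% in that of RPUSD2 and 43.7% in that of PUS10.

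**Figure D1:**
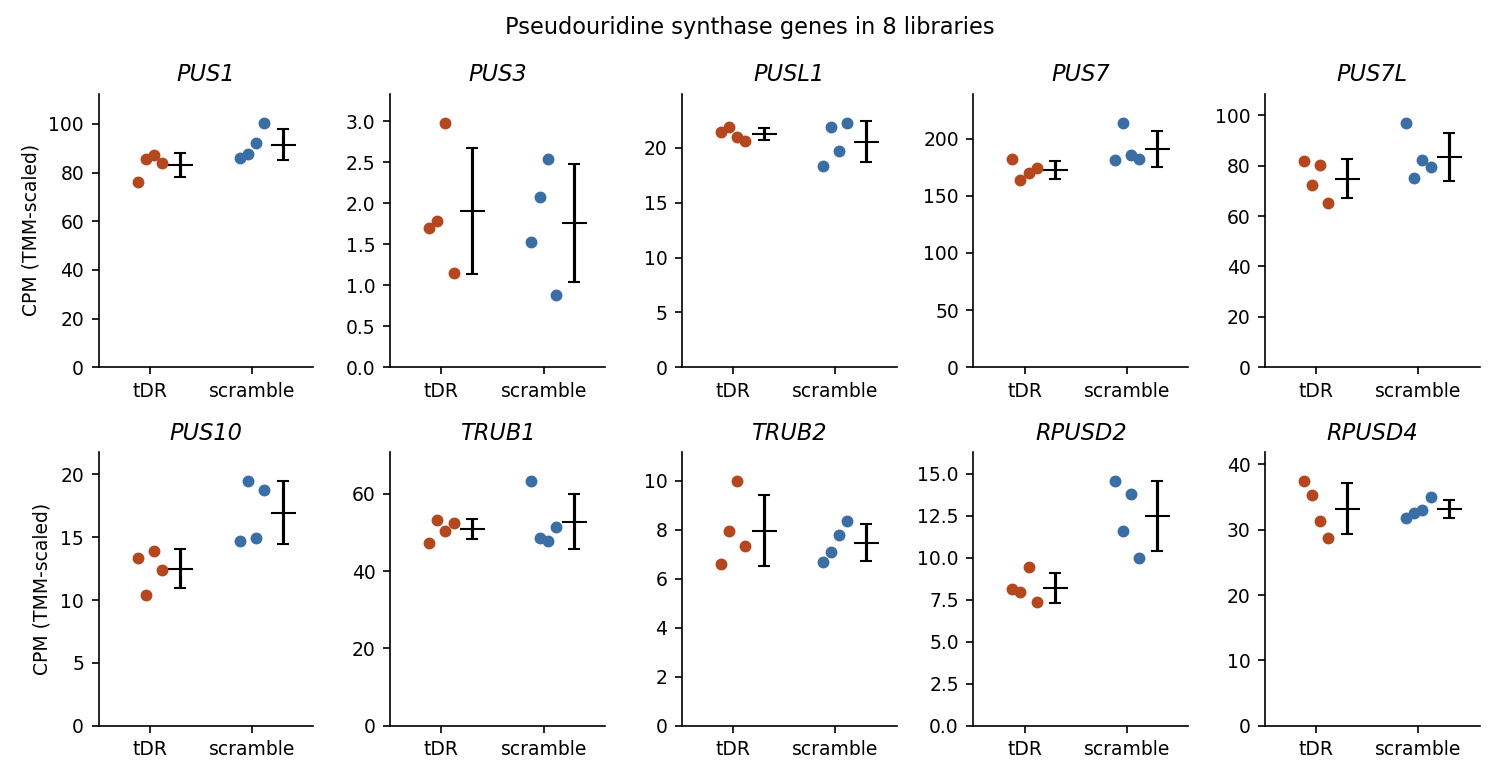
CPM (counts scaled to a common library total, TMM-scaled library sizes, linear axes from 0) of each synthase gene in the 4 tDR and 4 scramble libraries. Points are libraries and bars are mean ± SD. The tDR and scramble libraries do not overlap for RPUSD2 and PUS10, and overlap for the other 8 genes. Of all genes tested, 10.8% separated downwards and 11.8% upwards.

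PUS7 and its paralogue PUS7L make up the TruD family in human cells. PUS7 (ENSG00000091127.13, chromosome 7, 105439661 to 105522267, minus strand) had 182, 164, 170 and 175 CPM in tDR replicates 1 to 4, against 181, 214, 186 and 182 CPM in control replicates 1 to 4. CPM here and below are counts scaled to a common library total, after TMM factors that correct for differences in composition between libraries. The groups overlapped: the highest tDR library lay above the lowest control library, and control replicate 2 stood above all others. Means were 173 ± 7.78 CPM with the tDR and 191 ± 15.5 CPM in controls (SD, n = 4 each), and the log2 fold change was -0.14 with an SE of 0.054 (edgeR adjusted p = 0.0450). The 95% interval of that log2 fold change ran from -0.25 to -0.04. The call was lost in 4 of the 8 fits that left out 1 library. Without control replicate 2 the log2 fold change was -0.09 (edgeR adjusted p = 0.206), without tDR replicate 2 it was -0.13 (adjusted p = 0.139), without tDR replicate 3 it was -0.14 (adjusted p = 0.0942) and without tDR replicate 4 it was -0.15 (adjusted p = 0.0786). Over all alternatives it lay between -0.18 and -0.06 with adjusted p between 0.0115 and 0.441. Its direction was the same in each of the 19.

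PUS7L (ENSG00000129317.14, chromosome 12, 43718993 to 43758817), whose own RNA targets are less well known, had 81.8, 72.4, 80.1 and 65.1 CPM in the tDR libraries, against 97.0, 75.1, 82.3 and 79.3 CPM in the controls. Control replicate 1 was the highest and tDR replicate 4 the lowest, and the groups overlapped. Its log2 fold change of -0.16 ± 0.074 was close to that of PUS7 and did not pass (± SE; edgeR adjusted p = 0.0953). The 95% interval of -0.31 to -0.02 contains the PUS7 estimate. The ratio of PUS7 to PUS7L counts within a library was 2.32 ± 0.247 with the tDR and 2.32 ± 0.403 in controls (SD, n = 4 each), so the balance of the pair differed by less than the spread between libraries.

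PUS10 is the only human member of its family, modifies the T arm of tRNAs and has also been linked to the processing of microRNA precursors. PUS10 (ENSG00000162927.13, chromosome 2, 60940222 to 61018259, minus strand) had 13.4, 10.4, 13.9 and 12.4 CPM with the tDR, against 14.7, 19.4, 14.9 and 18.8 CPM in controls. All 4 tDR libraries lay below all 4 controls, though the gap between tDR replicate 3 and control replicate 1 was small. Of all genes tested, 10.8% showed such a separation downwards. The log2 fold change was -0.45 ± 0.142 (± SE; edgeR adjusted p = 0.0164), with a 95% interval from -0.73 to -0.16. The counts behind it were 76 to 118 reads per tDR library and 94 to 191 per control library. The call ended without tDR replicate 2 (-0.38, adjusted p = 0.0740), without control replicate 2 (-0.39, adjusted p = 0.0543) and without control replicate 4 (-0.40, adjusted p = 0.0592, all from edgeR). Over the 19 alternatives its adjusted p lay between 0.00764 and 0.0740.

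RPUSD2 and RPUSD4 belong to the RluA family. RPUSD2 (ENSG00000166133.17, chromosome 15, 40569300 to 40574943, plus strand) encodes an enzyme whose sites include mRNA precursors. It had 8.13, 7.94, 9.46 and 7.34 CPM in the tDR libraries, against 14.6, 11.6, 13.8 and 10.0 CPM in the controls. All 4 tDR libraries lay below all 4 controls, and the control libraries spread more widely than the tDR libraries. The group means were 8.22 ± 0.894 CPM with the tDR and 12.5 ± 2.08 CPM in controls (SD, n = 4 each). The log2 fold change of -0.60 ± 0.170 was the largest in size among the 10 genes (± SE; edgeR adjusted p = 0.00661; 95% interval -0.94 to -0.26). It rests on 48 to 73 reads per tDR library and 87 to 133 per control library. Over the 19 alternatives it lay between -0.71 and -0.52, with adjusted p between 0.00248 and 0.0354.

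RPUSD4 (ENSG00000165526.8, chromosome 11, 126202094 to 126211692), which acts on the large rRNA and on tRNA of mitochondria, had 37.4, 35.3, 31.4 and 28.7 CPM in the tDR libraries, against 31.9, 32.5, 33.1 and 35.1 CPM in the controls. The tDR libraries lay on both sides of the controls. The log2 fold change was -0.01 (edgeR adjusted p = 0.967), with a 95% interval of -0.20 to 0.19. That interval does not reach the RPUSD2 estimate, and the difference between the 2 genes was not tested.

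**Figure D2:**
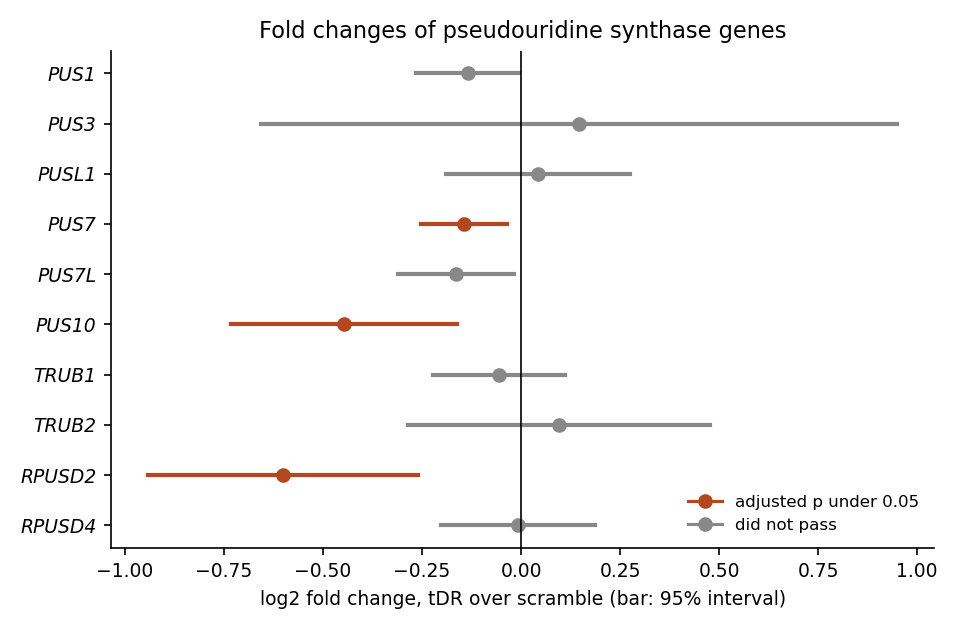
Log2 fold change, tDR over scramble, of each synthase gene (points) with its 95% interval (bars) from edgeR. RPUSD2, PUS10 and PUS7 passed at an adjusted p under 0.05, and PUS3 had the widest interval, -0.66 to 0.95.

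The TruA family holds PUS1, PUS3 and PUSL1, and none of the 3 passed. PUS1 (ENSG00000177192.13, chromosome 12, 131929200 to 131945896) modifies tRNA and mRNA in the nucleus and tRNA in mitochondria, and its loss causes a myopathy with sideroblastic anaemia. It had 76.2, 85.6, 87.2 and 84.1 CPM with the tDR, against 85.9, 87.6, 92.2 and 100 CPM in controls. The groups overlapped, with the lowest library in the tDR group and the highest among the controls. The log2 fold change was -0.13 ± 0.065 (± SE; edgeR unadjusted p = 0.0433, adjusted p = 0.126).

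PUSL1 (ENSG00000169972.11, chromosome 1, 1308567 to 1311677), a PUS1-like enzyme of mitochondria, stood at 21.3 ± 0.554 CPM with the tDR and 20.6 ± 1.85 CPM in controls (SD, n = 4 each). The difference, 0.04 on the log2 scale, was smaller than the spread among the controls (edgeR adjusted p = 0.826; 95% interval -0.19 to 0.28). PUS3 (ENSG00000110060.8, chromosome 11, 125893485 to 125903221), which modifies the anticodon arm of tRNAs, had 10, 13, 23 and 11 reads in the tDR libraries, against 14, 17, 16 and 9 reads in the controls. At that depth its log2 fold change of 0.15 had an SE of 0.401 (edgeR adjusted p = 0.830), and its 95% interval of -0.66 to 0.95 includes a change as large as that of RPUSD2.

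TRUB1 and TRUB2 are the TruB family. TRUB1 (ENSG00000165832.5, chromosome 10, 114938193 to 114977676), which modifies the T loop of tRNAs and sites in mRNA and promotes let-7 maturation, had 47.4, 53.1, 50.4 and 52.5 CPM with the tDR, against 63.3, 48.7, 47.8 and 51.5 CPM in controls. Control replicate 1 stood above all others, and the remaining libraries intermixed. The log2 fold change was -0.06 (edgeR adjusted p = 0.670), with a 95% interval of -0.22 to 0.11. TRUB2 (ENSG00000167112.9, chromosome 9, 128305161 to 128322742), a mitochondrial enzyme, stood at 7.97 ± 1.45 CPM with the tDR and 7.48 ± 0.740 CPM in controls (SD, n = 4 each; log2 fold change 0.10; edgeR adjusted p = 0.759). Its 95% interval of -0.29 to 0.48 left room for changes in either direction.

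Levels between genes were compared as CPM per kilobase of exon, using the union of annotated exons. PUS7 had the highest level, 39.1 ± 1.76 CPM per kilobase with the tDR and 43.2 ± 3.50 CPM per kilobase in controls (SD, n = 4 each). PUS1 followed with 14.5 and 15.97 CPM per kilobase and TRUB1 with 14.1 and 14.7 (tDR and control means), and the ranges of these 2 overlapped in both groups. PUSL1 and RPUSD4 came next and overlapped each other, at 8.54 and 8.13 CPM per kilobase with the tDR and 8.27 and 8.11 in controls. PUS7L, RPUSD2 and PUS10 stood at 5.33, 3.31 and 1.63 CPM per kilobase with the tDR, against 5.94, 5.04 and 2.22 in controls. TRUB2 and PUS3 were lowest and overlapped each other. The ranges of PUS7L and RPUSD2 overlapped in controls and not with the tDR, while those of PUS10 and TRUB2 overlapped with the tDR and not in controls. The order of the 10 means was the same in both groups.

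**Figure D3:**
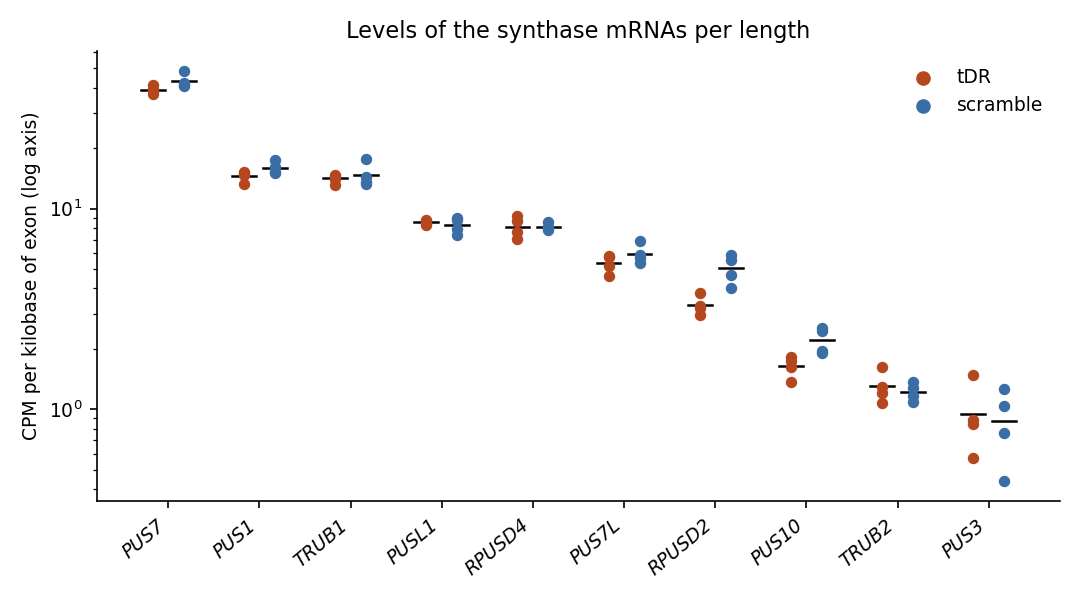
CPM per kilobase of exon (log axis) of the synthase genes in each tDR and scramble library, ordered by the scramble mean. Points are libraries and lines are means. PUS7 lies above all others in each library, and the order runs down to PUS3.

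Together the 10 genes took 2814 to 4330 reads per tDR library and 3147 to 5182 per control library. PUS7 made up 35.6% to 38.5% of those reads with the tDR and 35.2% to 41.1% in controls. The summed level of the 10 was 454 to 476 CPM with the tDR and 500 to 520 CPM in controls with TMM scaling. With library size alone the ranges were 472 to 492 CPM with the tDR and 483 to 506 CPM in controls, which overlap, so the separation of the sums depends on the scaling.

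The calls of PUS10 and PUS7 also depend on the scaling, and that of RPUSD2 does not. Scaling by library size alone moved the median over all tested genes to 0.10 on the log2 scale and gave 3295 genes called higher and 907 lower, against 2206 and 1962 with TMM. RPUSD2 was then at -0.52 and passed. PUS10 was at -0.36 (adjusted p = 0.0540) and PUS7 at -0.06 (adjusted p = 0.441). Estimated background was small for PUS7 and RPUSD2. By the density of reads over the span of 381 olfactory receptor genes, it made up 1.17% of PUS7 reads with the tDR and 0.679% in controls. For RPUSD2 it made up 1.69% and 0.723% of reads, and for PUS10 15.4% and 7.31%. By exon length the shares were 0.173% and 0.100% for PUS7, 2.05% and 0.877% for RPUSD2, and 4.17% and 1.97% for PUS10. With the background by gene span subtracted, PUS7 was at -0.10 and did not pass, while RPUSD2 and PUS10 did.

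**Figure D4:**
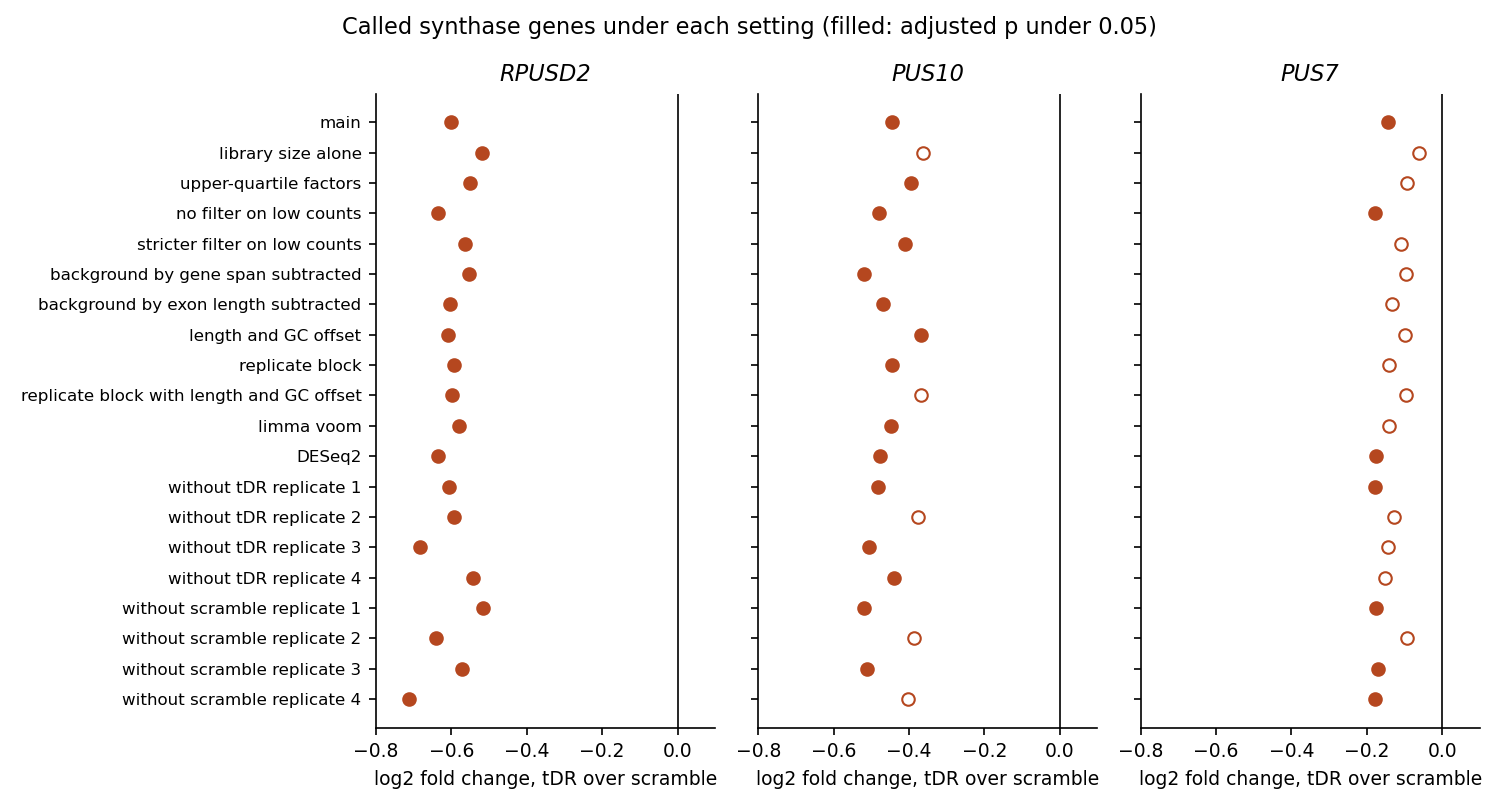
Log2 fold change, tDR over scramble, of RPUSD2, PUS10 and PUS7 in the main fit and under 19 alternative settings. Filled points have an adjusted p under 0.05. All points lie below 0, and the open points number 0 for RPUSD2, 5 for PUS10 and 13 for PUS7.

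Neighbouring genes bear on how reads were assigned, since no source used here gives the strand setting of the counting. PUS7, TRUB1, RPUSD2 and PUS3 share no exon bases with another gene in GENCODE 29. PUS10 shares 3.8% of its exon bases with PEX13, a gene for peroxisomal protein import on the opposite strand. PEX13 stood at 39.5 ± 5.18 CPM with the tDR and 38.8 ± 3.39 CPM in controls (SD, n = 4 each), a log2 fold change of 0.03 that did not pass (edgeR adjusted p = 0.836). PUSL1 shares the largest part, 10.5%, with ACAP3 and INTS11, which were at 0.19 and 0.11 on the log2 scale and did not pass (edgeR adjusted p = 0.150 and 0.212). RPUSD4 shares 6.0% with FAM118B. Members with a coding gene starting within 1000 bases on the opposite strand were PUS3 (DDX25), PUS7L (IRAK4), TRUB2 (COQ4) and RPUSD4 (FAM118B). IRAK4, COQ4 and FAM118B were at -0.13, 0.01 and -0.02 on the log2 scale, and none passed (edgeR adjusted p = 0.513, 0.974 and 0.899). DDX25 was too low to be tested. The start of PUS1 overlaps that of the noncoding gene ENSG00000255992 by 152 exon bases, and that gene had 11 to 27 reads in the tDR libraries, against 4 to 22 in the controls (log2 fold change 0.61, edgeR adjusted p = 0.310). HYLS1 overlaps PUS3 without shared exon bases and was at -0.39 (edgeR adjusted p = 0.370). The remaining overlapping genes were at 0 in all libraries, namely ENSG00000257896, which shares 80 exon bases with PUS7L, and, with no shared exon bases, RNA5SP95 in PUS10, RNU6-1121P in TRUB1, ENSG00000272696 in TRUB2, ENSG00000254694 in RPUSD4 and ENSG00000273568 in PUS1.

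Several genes of the guide-dependent machinery were also lower. Of 6 box H/ACA genes tested, 3 fell, 0 rose and 3 did not pass with edgeR, with a median log2 fold change of -0.22. Over all genes tested that median was 0.02, with 11.4% called lower and 12.8% higher. DESeq2 called 3 of the 6 lower and 0 higher, against 1861 and 1134 of 34642 genes. With limma 3 were lower and 0 higher, against 1934 and 2224 of 17184 genes. At an unadjusted edgeR p under 0.05, 4 were lower and 0 higher, and the share of all genes at that threshold was not counted. DKC1, the catalytic subunit, had 318, 290, 296 and 273 CPM with the tDR, against 342, 368, 352 and 345 CPM in controls. All 4 tDR libraries lay below all 4 controls, and the log2 fold change was -0.26 ± 0.048 (± SE; edgeR adjusted p = 4.54e-05). NHP2, a core protein of the particle, had 170, 151, 150 and 146 CPM with the tDR, against 213, 203, 194 and 201 CPM in controls (log2 fold change -0.40 ± 0.053; edgeR adjusted p = 7.09e-08). NAF1, an assembly factor, fell by 0.19 on the log2 scale (edgeR adjusted p = 0.0403), a call that was lost under 13 of 19 alternatives. DKC1 and NHP2 passed under all 19. NOP10 (-0.33), GAR1 (-0.17) and SHQ1 (-0.07) did not pass.

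Partners of the mitochondrial synthases that were tested did not pass. RPUSD4 and TRUB2 act on mitochondrial RNA with RPUSD3, NGRN, RCC1L and FASTKD2. The 4 tested genes of this group were RPUSD4, TRUB2, RCC1L and FASTKD2, and edgeR, DESeq2 and limma each called 0 of them. At an unadjusted edgeR p under 0.05, 1 was lower and 0 higher, and the share of all genes at that threshold was not counted. Over all genes tested, edgeR called 11.4% lower and 12.8% higher at an adjusted p under 0.05. DESeq2 called 1861 lower and 1134 higher of 34642 genes, and limma 1934 and 2224 of 17184. FASTKD2, an RNA-binding protein of mitochondria, was at -0.21 (edgeR adjusted p = 0.0538) and RCC1L at -0.08 (adjusted p = 0.396). RPUSD3 was listed at 0 in all 8 libraries and NGRN at 0 or 1. Such genes are used widely in cells. No source used here says how reads fitting several genes were counted, so these values set no limit on the level of either gene. In the annotation used here for exon lengths, RPUSD3 shared 0 exon bases with another gene on either strand. Exon sharing of NGRN was not examined, and the cause of these low counts was not tested. RPUSD1, the remaining gene of the RPUSD type, was at 0.03 (edgeR adjusted p = 0.861). PUDP, which removes phosphate from pseudouridine monophosphate, was at -0.09 (adjusted p = 0.539).

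Genes for other RNA modifications were counted against the same background of 11.4% called lower and 12.8% higher. Of 17 tested genes for other uridine changes in tRNA, 4 fell, 0 rose and 13 did not pass with edgeR, with a median log2 fold change of -0.12. DESeq2 called 3 lower and 0 higher, against 1861 and 1134 of 34642 genes. With limma 4 were lower and 0 higher, against 1934 and 2224 of 17184 genes. At an unadjusted edgeR p under 0.05, 6 were lower and 0 higher, and the share of all genes at that threshold was not counted. Among those that fell were ELP2 (-0.21) and ELP4 (-0.25), subunits of Elongator, and ALKBH8 (-0.22), which acts on the wobble uridine after Elongator. Of 15 tested genes for other mRNA marks, 6 fell, 1 rose and 8 did not pass, with a median of -0.15. Genes of the m6A methyltransferase complex that fell were METTL14 (-0.32), VIRMA (-0.19) and ZC3H13 (-0.23). The demethylase gene ALKBH5 (-0.18), the reader gene YTHDC1 (-0.22) and the acetyltransferase gene NAT10 (-0.26) also fell. ADAR, which makes inosine, rose by 0.16 on the log2 scale with edgeR and was not called by DESeq2. METTL14, ZC3H13, YTHDC1 and NAT10 passed under all 19 alternatives. With library size alone VIRMA (adjusted p = 0.187), ALKBH5 (0.229), ELP2 (0.0944), ELP4 (0.173) and ALKBH8 (0.212) did not pass with edgeR, while ADAR did. ALKBH8 was not called under 10 of 19 alternatives, ELP4 under 9, ALKBH5 and ADAR under 5 each, VIRMA under 4 and ELP2 under 2. DUS4L, WTAP and THUMPD1 were listed at 0 in all libraries.

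**Figure D5:**
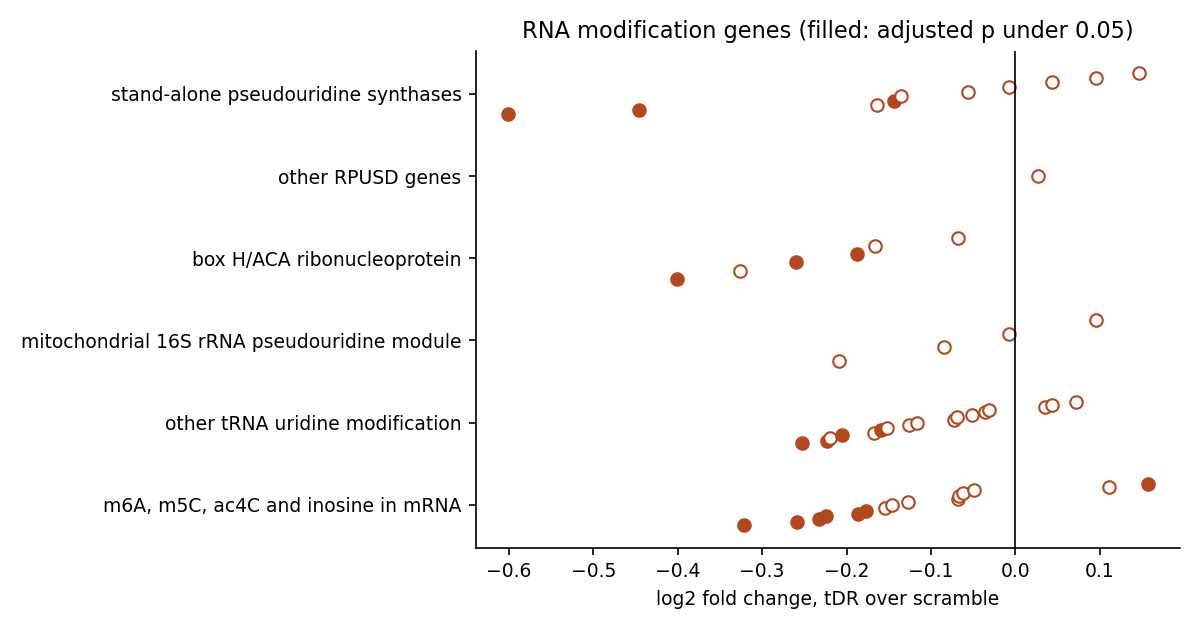
Log2 fold change, tDR over scramble, of each tested gene in the synthase list and in lists of other RNA modification genes, with 1 point a gene. Filled points have an adjusted p under 0.05. The 6 box H/ACA genes all lie below 0, and the synthases spread on both sides, 7 below and 3 above.

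Genes whose level followed PUS7 most closely over the 8 libraries were THRAP3, UGDH, CAP1, TTF2 and CDC26, ranked among 8984 tested genes by the Pearson correlation of log2 CPM. The correlations were 0.986 for THRAP3, 0.966 for UGDH, 0.957 for CAP1, 0.954 for TTF2 and 0.951 for CDC26. They describe 8 points that share their scaling, of which control replicate 2 is the farthest in PUS7. With each group's mean removed they were 0.978, 0.968, 0.929, 0.921 and 0.913, in the same order of genes. None of the 5 genes passed the test between groups (edgeR, lowest adjusted p = 0.0688). THRAP3 was called lower under 7 of the 19 alternatives, with adjusted p of 0.0157 with DESeq2 and 0.0438 with limma, and TTF2 and CDC26 under 2 each. Among the other synthases PUS10 was the most like PUS7, at 0.812, and TRUB2 the least, at -0.424. With each group's mean removed PUS10 was at 0.628 and TRUB2 at -0.381, and TRUB1 was then the least alike, at -0.551.

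Total counts were 5848305 to 9237986 in the tDR libraries and 6536554 to 10557740 in the controls. All 6 marker genes of the HEK293 line were found, with summed levels of 461 to 508 CPM with the tDR and 524 to 574 CPM in controls. With edgeR the NEFM and NEFL genes among them fell and PAX2 and KRT8 rose. DESeq2 called 2 of the 6 lower and 1 higher. Over all genes tested, edgeR called 11.4% lower and 12.8% higher. In the DESeq2 fit 1861 of 34642 genes were lower and 1134 higher. Of 10 markers of blood, endothelium, liver, islet and fibroblasts, INS was at 0 in all libraries and HBB at 0 or 1 read. The 10 summed to 36.8 to 42.6 CPM with the tDR and 21.2 to 27.9 CPM in controls. Of the 5 tested with edgeR, PECAM1, CDH5 and COL1A1 were higher, and PTPRC (log2 fold change 0.48) and COL3A1 (-0.13) did not pass. DESeq2 called 2 of the 10 higher and 0 lower. The part of these markers in the synthase results was not tested. Fewer cells of a type and less RNA per cell cannot be told apart in these bulk libraries.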

How the data were processed

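The deposited table holds raw read counts, which the authors gave as whole numbers for each gene and library. The submitters' processing notes name the builds GRCh38.p13 and hg38 and the tools STAR 2.7.8a, featureCounts 2.0.2, cutadapt 2.10, DESeq2 1.30.1 and FastQC 0.11.9, without their roles. Per the labels' protocols, RNA was extracted with TRIzol and libraries came from a stranded low-input kit. No source used here gives the strand setting or annotation release. Each column matched 1 library by its name.

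Counts were tested with edgeR 4.0.16 in R 4.3.3 (quasi-likelihood F test, TMM factors, edgeR's own filter on low counts, group as the only term). This left 17184 genes, over which p-values were Benjamini-Hochberg adjusted and called under 0.05. The steps were tested on simulated data. SE and 95% intervals come from that fit. GENCODE 29 (GRCh38) gave positions and exon lengths for 94.0% of genes. Alternatives used limma 3.58.1, DESeq2 1.42.0, other scalings and filters, background, length and GC content, and each library left out. Each pair of libraries differed by more than counting noise (chi-square of 2.13 to 7.36 per degree of freedom).

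The members and lists were chosen with earlier results of these data known. The text names all members, the genes next to them, called genes of the other lists (except 1, not reported here), and the 5 genes of mean log2 CPM above 4 most like PUS7. Other genes of those lists appear only as values, chosen after these were seen. A planned comparison of protein sequences was not made here, since no protein table was used.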

Additional observations from a re-analysis of the deposited data

Results flagged for a closer look

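PUS7 in control replicate 2, at 214 CPM, stood apart from the other 3 control libraries, which lay between 181 and 186 CPM. The gap was 0.851 of the range of the group, above Dixon's 95% critical value for 4 samples. It was the only such library among 20 groups of values examined (10 genes in 2 groups each), and chance gives about 1 in 20. Without that library the log2 fold change of PUS7 was -0.09 and did not pass (edgeR adjusted p = 0.206). The call was also lost without tDR replicate 2, 3 or 4. The cause was not tested.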

How the results depend on the processing

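RPUSD2 kept its call under all 19 settings tried. PUS7 did not pass with library size alone (-0.061), upper-quartile factors (-0.094), a stricter filter (-0.11), background subtracted by gene span (-0.095) or by exon length (-0.13, chosen after seeing the data), a length and GC offset (-0.097) or limma voom (-0.14). It did not pass with the replicate block (-0.14) or the block with the length and GC offset (-0.095) either, and lay between -0.18 and -0.094 with each library left out, losing its call in 4 of 8 such fits (without tDR replicate 2, 3 or 4 or control replicate 2). Equal replicate numbers did not pair the libraries (correlations of deviations -0.10, 0.07, 0.00364 and 0.03), and the block left 2 synthases called and 3874 genes. The count of lower synthases was 1 with library size alone and with the block and offset, and 1 to 4 with a library left out, against 3. Lower genes numbered 907 with library size alone and 1235 with upper-quartile factors, against 1962. Higher genes numbered 1370 with the stricter filter and 1134 with DESeq2, against 2206. Background by gene span left 2210 called genes, 1117 higher and 1093 lower. RPUSD4, TRUB1, PUS3, PUSL1 and TRUB2 changed sign under some settings without ever passing. RPUSD4 was at 0.075 with library size alone, 0.043 with upper-quartile factors, 0.028 with the stricter filter, 0.045 with background by span, 0.0066 with the offset and 0.00672 with the block and offset. TRUB1 was at 0.027, 0.054 and 0.060 with library size alone, the offset, and the block and offset. With a library left out the ranges were -0.073 to 0.061 for RPUSD4, -0.11 to 0.039 for TRUB1, -0.18 to 0.35 for PUS3, -0.016 to 0.076 for PUSL1 and -0.037 to 0.16 for TRUB2. The cause was not tested. PUS7L passed under 3 settings and PUS1 under 1. The order of levels with the longest transcript exchanged RPUSD4 and PUSL1, and the 5 genes most like PUS7 were the same with a prior count of 0.5. At 9 to 23 reads a library, depth limits what PUS3 can show.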
